A study of Mus musculus with 16 samples.

Results

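Narrow H3K4me3 regions at gene ends that were called in Mettl14 knockout cells and not in control cells are described here. The peaks of the 4 deposited H3K4me3 lists were merged into 13108 regions, of which 7520 touched a window of 1 kb either side of an end of a protein-coding gene. A region was a member when both knockout lists and no control list called it, it touched such a window, and fewer than 1800 of its bases were called in at least 1 knockout list. This gave 2401 regions, 18.3% of all merged regions and 31.9% of those at gene ends. Members were chosen by the presence and width of H3K4me3 calls, so both are given as a description with no test. Of all 13108 regions 21.9% were called in both knockout lists and no control list, and of the 7520 at gene ends 32.7%. The width limit removed 59 of the 2460 knockout-only gene-end regions, so the members are 97.6% of that class.

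The study used mouse embryonic stem cells (mESCs) of strain C57BL/6, grown in serum medium with LIF and the inhibitors CHIR99021 and PD0325901. ChIP-seq, the sequencing of DNA bound to an immunoprecipitated protein, covered 3 histone marks in cells labelled Mettl14 Control and Mettl14 CKO, with 2 libraries per mark and genotype. The allele, the way the gene was deleted, the number of clones and the source of the control cells are not given in the labels. The replicates carry numbers and no statement of separate cultures, so their spread may be technical. The lists hold peak positions and widths and no read counts, so the depth behind each call is unknown. The H3K4me3 lists held 2859 and 2431 peaks in control and 8131 and 8055 in knockout cells, the H3K27ac lists 15541 and 13520 against 15271 and 15058, and the H3K27me3 lists 6312 and 7203 against 11349 and 11446. A region absent from a shorter list can lie under its threshold, and a change in the mark, depth, enrichment and threshold cannot be told apart in these lists. With the H3K4me3 lists cut to an equal number of their widest peaks, 410 regions met the rule, and without H3K4me3 knockout replicate 1 there were 3638.

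The METTL14 protein binds METTL3, and the pair forms the core of the nuclear writer that methylates adenosine in RNA to m6A. Trimethylation of histone H3 at lysine 4 (H3K4me3) is deposited by the KMT2 and SETD1 enzymes around transcription starts, above all at promoters rich in CpG dinucleotides, where CXXC-domain proteins bind unmethylated CpGs. Acetylation of lysine 27 (H3K27ac) accompanies transcription at promoters and enhancers, whereas trimethylation of the same residue (H3K27me3) is the product of Polycomb repressive complex PRC2. Stem cells carry H3K4me3 and H3K27me3 together at many developmental promoters.

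The promoters under the members were mostly CpG-rich, and 6 are printed here to show that shared feature and its exceptions. They are RefSeq promoters of build GRCm38.p6 (mm10), from 250 bases before to 50 after an annotated start, 5′ to 3′ on the strand of the gene, with each CpG in capitals. Wtap and Kmt2a belong to enzyme complexes of RNA and histone methylation, Isl1 is a developmental factor, Mib2 had wide H3K27ac in the knockout lists alone, Pde4a had wide H3K27me3 in both knockout lists, and Zfp42 is a CpG-poor exception.
Wtap promoter, chr17:12992494-12992793 (- strand): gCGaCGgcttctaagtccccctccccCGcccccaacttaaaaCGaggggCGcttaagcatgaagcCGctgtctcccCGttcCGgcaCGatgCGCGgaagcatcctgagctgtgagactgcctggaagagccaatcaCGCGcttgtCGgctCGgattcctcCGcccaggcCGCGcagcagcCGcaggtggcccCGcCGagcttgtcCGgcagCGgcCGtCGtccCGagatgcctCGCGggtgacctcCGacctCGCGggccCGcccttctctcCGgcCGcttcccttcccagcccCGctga
Kmt2a promoter, chr9:44881240-44881539 (- strand): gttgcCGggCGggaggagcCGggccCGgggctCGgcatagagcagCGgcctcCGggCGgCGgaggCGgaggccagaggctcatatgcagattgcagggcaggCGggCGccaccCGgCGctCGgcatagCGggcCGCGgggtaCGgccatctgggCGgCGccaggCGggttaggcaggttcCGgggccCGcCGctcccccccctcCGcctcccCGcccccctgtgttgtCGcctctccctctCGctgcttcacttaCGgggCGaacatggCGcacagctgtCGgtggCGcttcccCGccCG
Isl1 promoter, chr13:116309639-116309938 (- strand): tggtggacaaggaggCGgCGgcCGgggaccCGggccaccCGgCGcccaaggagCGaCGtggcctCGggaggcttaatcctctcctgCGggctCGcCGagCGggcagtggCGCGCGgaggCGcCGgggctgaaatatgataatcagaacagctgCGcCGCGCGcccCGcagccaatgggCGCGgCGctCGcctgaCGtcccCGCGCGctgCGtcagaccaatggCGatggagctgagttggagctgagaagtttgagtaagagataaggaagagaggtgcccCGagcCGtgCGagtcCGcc
Mib2 promoter, chr4:155669170-155669469 (- strand): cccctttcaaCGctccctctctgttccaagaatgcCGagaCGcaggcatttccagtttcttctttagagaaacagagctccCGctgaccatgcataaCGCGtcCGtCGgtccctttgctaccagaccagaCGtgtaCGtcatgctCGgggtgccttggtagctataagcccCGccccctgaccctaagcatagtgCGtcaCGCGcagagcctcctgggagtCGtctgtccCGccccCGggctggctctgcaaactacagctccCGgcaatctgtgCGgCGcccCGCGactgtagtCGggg
Pde4a promoter, chr9:21165464-21165763 (+ strand): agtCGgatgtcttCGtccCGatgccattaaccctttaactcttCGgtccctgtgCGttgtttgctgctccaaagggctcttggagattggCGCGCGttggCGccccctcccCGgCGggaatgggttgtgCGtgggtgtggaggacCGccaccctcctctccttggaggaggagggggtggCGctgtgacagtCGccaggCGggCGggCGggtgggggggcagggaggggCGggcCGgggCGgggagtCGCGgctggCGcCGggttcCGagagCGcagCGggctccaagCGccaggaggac
Zfp42 promoter, chr8:43306960-43307259 (- strand): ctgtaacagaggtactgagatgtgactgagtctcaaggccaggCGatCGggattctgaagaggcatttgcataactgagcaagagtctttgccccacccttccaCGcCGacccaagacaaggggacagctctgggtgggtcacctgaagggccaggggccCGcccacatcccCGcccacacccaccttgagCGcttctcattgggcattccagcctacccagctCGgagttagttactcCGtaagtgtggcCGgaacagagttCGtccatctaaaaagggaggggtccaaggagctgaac

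The Wtap promoter holds 35 CpGs and a CpG observed over expected ratio of 1.00. Kmt2a has 36 CpGs and a ratio of 0.84, Isl1 37 and 1.05, Mib2 24 and 0.88, and Pde4a 29 and 0.83. Zfp42 holds 11 CpGs and a ratio of 0.44. Of the 21883 protein-coding genes 17491 had an entry in the promoter table, and 1971 of these had a promoter overlapped by a member. The median CpG ratio of those 1971 was 0.85 (10th to 90th percentile 0.60 to 1.06), with a median of 25 CpGs and 63.3% G and C. The 542 promoters overlapped by gene-end regions called in all 4 H3K4me3 lists had a median ratio of 0.89 and 27 CpGs. The 10143 promoters of genes without an H3K4me3 call had 0.29 and 5 CpGs. A ratio of 0.6 or more was found in 90.1% of member promoters, 92.8% of those called in all 4 lists, 24.2% of those without a call and 48.3% of all promoters. Members thus lay near the regions called in all 4 lists on this scale, and far from genes without a call.

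**Figure D1:**
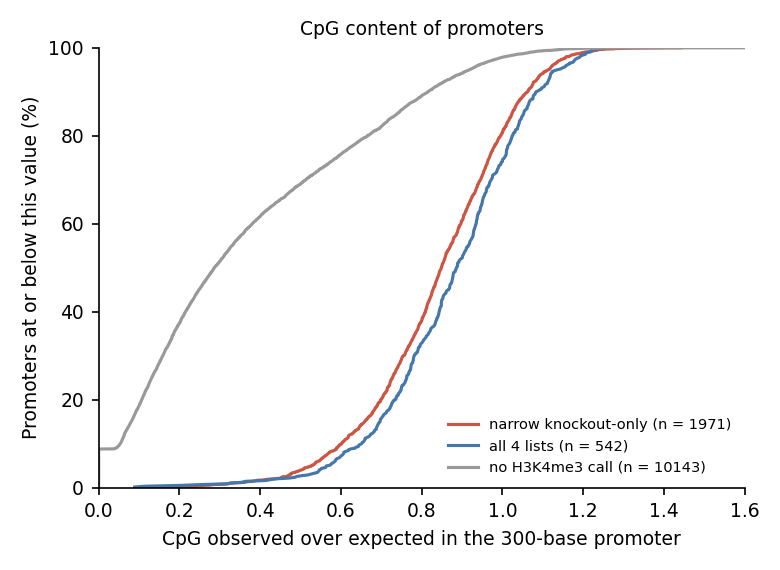
Cumulative share of promoters (vertical axis, %) by CpG observed over expected in the 300-base promoter (horizontal axis, no unit) for genes with a narrow knockout-only region, genes called in all 4 H3K4me3 lists and genes without a call. The curves of the members (median 0.85) and of the regions in all 4 lists (median 0.89) run side by side, to the right of the genes without a call (median 0.29).

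Short motifs were searched on both strands of these promoters, and no motif contains another. The GC box GGGCGG, bound by SP and KLF factors, was in 74.0% of member promoters, 76.6% of those called in all 4 lists and 46.3% of all promoters. The ETS core CCGGAAG was in 24.3%, 21.8% and 11.9%, and the NRF1 core GCATGCG in 8.73%, 7.38% and 4.48%. The TATA box TATAAA was in 5.38% of member promoters, 5.72% of those called in all 4 lists and 13.3% of all promoters. The CCAAT box hardly varied, at 39.3%, 37.6% and 39.0%. The palindrome TCGCGA was in 6.65% of member promoters and 13.3% of those called in all 4 lists, against 3.42% of all promoters, the widest gap between the 2 classes in proportion among the 9 motifs. The other motifs were the E box CACGTG (11.1%, 10.7% and 7.90%), the YY1 core AAGATGG (9.94%, 12.2% and 6.37%) and the CRE core TGACGTC (7.46%, 9.59% and 4.0%). These matches are a description of letters and carry no test.

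Member regions covered transcription starts and reached mainly into the gene. An annotated start of a protein-coding gene lay inside 1672 members (69.6%) and within 1 kb of another 258 (10.7%). A further 30 (1.25%) touched genes that all have a listed start and none within 1 kb. The remaining 441 touched at least 1 gene with no entry in the promoter table and could not be placed. Strand is missing from the gene table, and the rule therefore does not tell the start of a gene from its end. For the 1930 members with a start within 1 kb, the centre of the region lay a median of 336 bp downstream of the nearest start, and downstream in 89.9%. The 481 regions called in all 4 lists had a median of 438 bp, and 89.8% lay downstream. Calls of the knockout lists were most frequent 250 bp and 350 bp past the start, where each list covered 91.7% of these members. At 1000 bp upstream they covered 3.47% and 3.01%, and at 1000 bp downstream 25.2% and 22.0%.

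**Figure D2:**
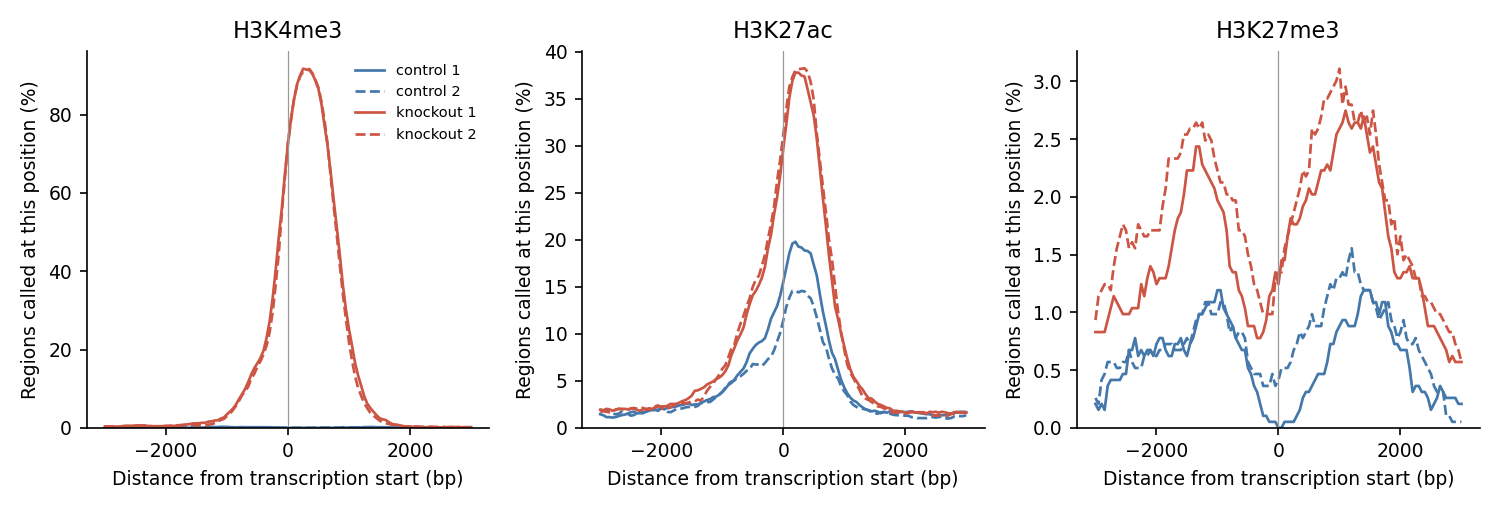
Share of the 1930 members with a start within 1 kb that were called at each position (vertical axis, %) by distance from the nearest start along the gene's strand (horizontal axis, bp), for each of the 12 lists; solid and dashed lines are replicates 1 and 2. H3K27ac calls and those of the knockout H3K4me3 lists peak 200 bp to 350 bp downstream, the control H3K4me3 lists stay at 0.259% or less, and H3K27me3 calls are lower at the start than 1000 bp away in each of the 4 lists.

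The knockout replicates gave similar positions and moderately similar widths. Each list covered a member with a single peak at 2391 of 2401 regions, and the median share of the narrower call lying inside the other was 98.4%. Called bases ran from 501 to 2942 (median 949) in knockout replicate 1 and from 501 to 3034 (median 921) in replicate 2. Replicate 1 was the wider at 1209 members, replicate 2 at 1086, and 106 were equal. The wider call was a median 1.26 times the narrower, and 179 members (7.46%) differed by more than 2-fold. Across members the widths had a Spearman rho of 0.50 and a Pearson r of 0.48, as a description over sites that share the same 2 libraries. Widths came in steps. The minimum of 501 bp was called at 336 and 339 members, at 101 of them in both lists, and the next width was 626 bp. Small differences between narrow calls are therefore not resolved.

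**Figure D3:**
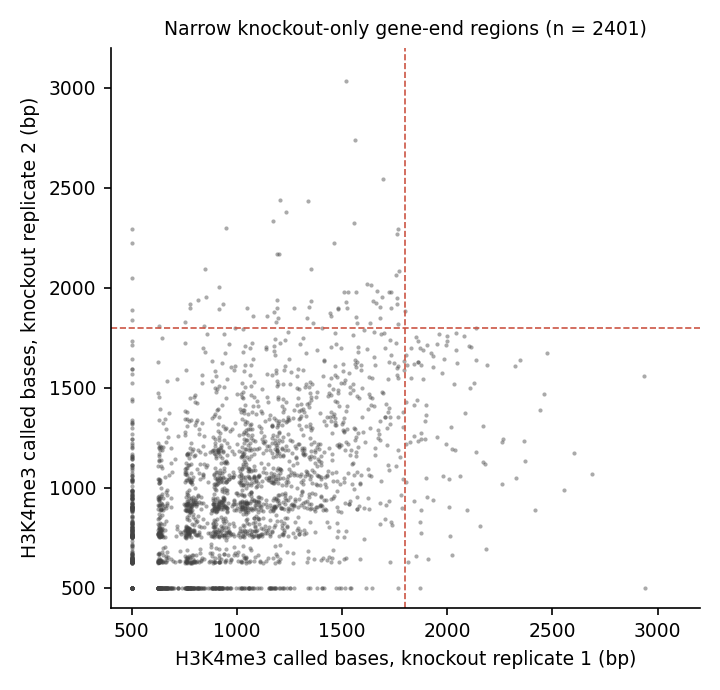
H3K4me3 called bases of each of the 2401 members in knockout replicate 1 (horizontal axis, bp) and replicate 2 (vertical axis, bp), with dashed lines at the limit of 1800 bases. Points fill the square under the limit and its 2 arms, with rows and columns of points at the minimum of 501 bp.

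The width limit cuts through a continuous range. Just inside it lay Pgd, which encodes an enzyme of the pentose phosphate pathway, with 2138 and 1798 bases in knockout replicates 1 and 2. Snx18 had 1797 and 1882, the region touching Slc35e2 and Cdk11b 1771 and 2086, and the region touching Pask and Ppp1r7 1959 and 1770. Just outside lay Rspry1 (2189 and 1804), Cdk13, a kinase of elongating RNA polymerase II (1807 and 2970), Grtp1 (1812 and 1990), Hnrnpd (2158 and 1820) and Smchd1 (1965 and 1822). Under the limit in both lists were 2229 members, and 172 were at or above it in 1 list. The largest disagreement between replicates was at Btf3l4, with 2942 and 501 bases. Next came the mitotic kinase gene Plk1 with 501 and 2296, Dym with 501 and 2226, the cell cycle factor gene E2f2 with 501 and 2047, and Slc39a6 with 501 and 1890. Replicate 1 was the narrow one at 4 of these 5.

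H3K27ac was called at more members in knockout than in control cells. The H3K27ac libraries were not used to choose the members. The rule did require H3K4me3 calls in knockout and none in control cells. How far a mark found at the same promoters follows from that rule was not tested. H3K27ac peaks touched 641 members (26.7%) in control replicate 1 and 505 (21.0%) in replicate 2, against 1103 (45.9%) and 1151 (47.9%) in the knockout replicates. The knockout values did not overlap the control values. The means were 23.9 ± 4.01% and 46.9 ± 1.41% (SD, n = 2 each), a difference of 23.1 percentage points, larger than the spread between replicates (exact two-sided permutation p = 0.333, the smallest that 2 lists against 2 can give). Mean called bases per member were 194 and 148 in control and 382 and 396 in knockout lists, a 2.29-fold difference (log2 1.20, exact permutation p = 0.333). Gene-end regions called in a single knockout list differed 2.21-fold, close to the members, and all gene-end regions that are not members 1.42-fold. The H3K27ac lists were of similar length in the 2 genotypes, and at equal list length the difference in share was 21.7 points. Their peaks were not of similar width. Over the whole genome the median peak spanned 501 bp in each control list, 631 bp in knockout replicate 1 and 633 bp in knockout replicate 2. Control replicates 1 and 2 covered 15.2 Mb and 13.3 Mb, and the knockout replicates 15.9 Mb and 16.0 Mb. How much these wider calls add to the differences in share and called bases was not tested. The antibody entry in the labels of the H3K27ac libraries is the H3K4me3 one, and peak lists cannot tell which antibody was used. The widest peak was 20743 bp to 21562 bp in the lists titled H3K27ac and 3073 bp to 5836 bp in those titled H3K4me3, over both genotypes.

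Member by member, 245 (10.2%) had H3K27ac in both knockout lists and no control list, and 6 (0.250%) the reverse. Over all 7520 gene-end H3K4me3 regions these shares were 5.81% and 0.638%, and over the 5119 that are not members 3.75% and 0.820%. H3K27ac was called in all 4 lists at 253 members (10.5%), in 1 knockout list alone at 526 (21.9%), in 1 control list alone at 83 (3.46%) and in no list at 794 (33.1%). At the 253 with H3K27ac in all 4 lists the median called bases were 796 and 785 in control and 1030 and 1058 in knockout lists. The knockout value was the larger at 212 of them (83.8%), with a median log2 ratio of 0.35. Around the start, H3K27ac covered at most 19.8% and 14.6% of members in control and 37.8% and 38.2% in knockout lists, 200 bp to 350 bp downstream, which is where H3K4me3 calls were most frequent.

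The share with H3K27ac was higher at wider members. An overlap of 1 bp counted, so a wider region offers more bases to touch, and how much of the gradient this makes up was not tested. Members at the minimum width in a knockout list (574) had H3K27ac at 13.8% in control and 26.9% in knockout cells (means of 2 lists). Those with a smaller width above the minimum and under 1000 bp (1128) had 21.6% and 45.7%, and the 699 at 1000 bp or more had 35.8% and 65.4%. In each width class the groups of lists did not overlap. Members with a start inside had 24.1% and 47.5%, and those with a start outside within 1 kb 19.8% and 37.6%. The 441 members that could not be placed had 25.7% and 50.2%, and the 30 with no listed start within 1 kb 18.3% and 45%. The 1594 members at promoters with a CpG ratio of 0.6 or more had 26.8% and 21.1% in the control and 46.2% and 47.4% in the knockout lists, close to the 27.9%, 17.9%, 48.9% and 51.1% of the 190 at lower ratios.

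Other H3K4me3 classes at gene ends gave a range for comparison. Of the 572 regions called in all 4 H3K4me3 lists, 77.3% and 73.4% had H3K27ac in control and 81.8% and 83.4% in knockout lists, a difference of 7.26 points. The knockout minus control difference was 15.8 points larger in members (exact permutation test of the per-library difference, p = 0.333, the smallest possible), and 9.19 points larger without H3K4me3 control replicate 1. Regions called in all 4 lists started higher in control cells and so had less room to rise. What this adds to the 15.8 points was not tested. The 59 knockout-only regions of 1800 bases or more in both knockout lists had 66.1% and 57.6% against 79.7% and 86.4%, a difference of 21.2 points. Against these the members differed by 1.89 points (exact permutation p = 0.667). That value changed sign without H3K27ac knockout replicate 1 (-0.503), H3K4me3 knockout replicate 1 (-7.85) and H3K4me3 knockout replicate 2 (-5.15). Regions called in both knockout lists and 1 control list (1365) had 50.1% and 64.4% (means of 2 lists), and those in a single knockout list (2569) 11.3% and 21.2%. All gene-end regions that are not members (5119) had 30.9% and 40.4%, a difference of 9.51 points. Windows at the ends of genes without an H3K4me3 call had 2.58% and 3.12%.

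**Figure D4:**
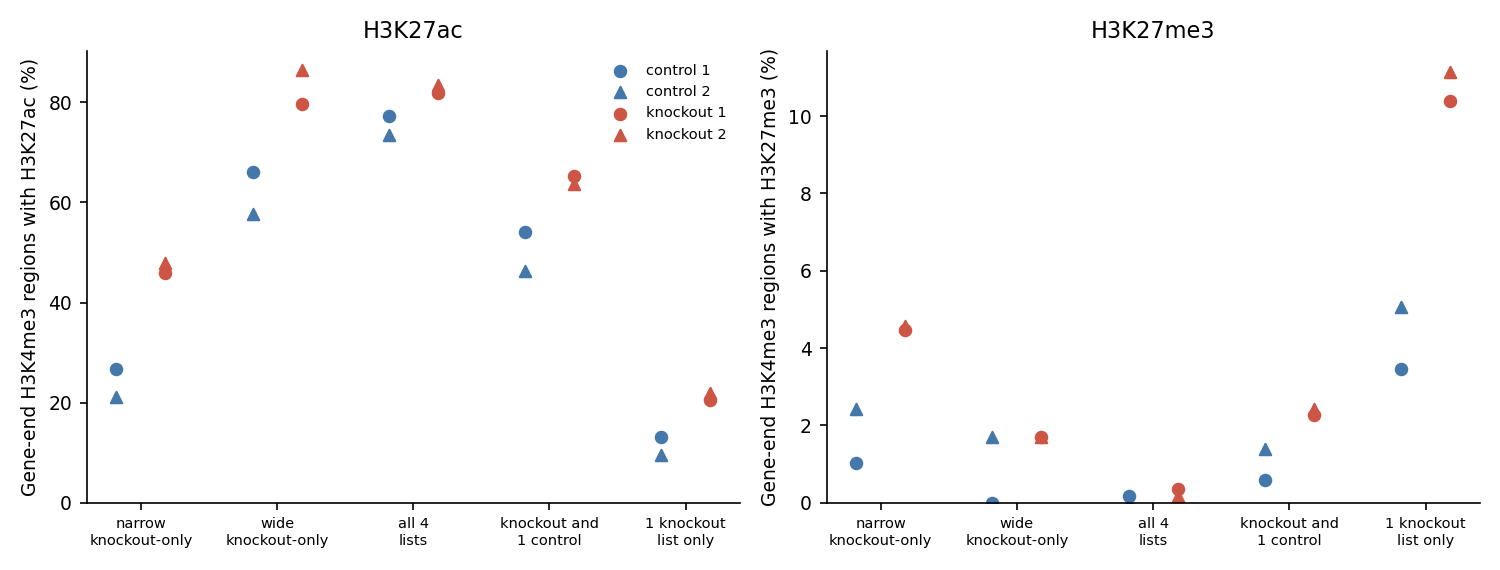
Share of gene-end H3K4me3 regions touched by H3K27ac (left) or H3K27me3 (right) in each of the 4 lists of that mark (vertical axes, %, from 0), for 5 classes of H3K4me3 region; circles and triangles are replicates 1 and 2. The members are at the left: their knockout H3K27ac values (45.9% and 47.9%) lie above the control values (26.7% and 21.0%), and their H3K27me3 values stay under 5 in 100.

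Among the members with H3K27ac in both knockout lists and no control list, Zc3h3, a zinc finger gene on chromosome 15 (region 75841210 to 75842689), had the widest peaks, 4098 bp and 3979 bp. Pigz, an enzyme of GPI anchor synthesis, followed with 3874 bp and 3782 bp, at an end with no listed start within 1 kb. Mib2, a ubiquitin ligase gene whose promoter is printed above, had 3144 bp and 3814 bp on chromosome 4 (region 155668088 to 155669487), over H3K4me3 calls of 1091 and 1371 bases. Next were Txnl4a of the U5 spliceosomal particle (2828 bp and 2380 bp), the RNA helicase gene Ddx17 (2583 bp and 2368 bp) and Zfp85 (2268 bp and 2734 bp). The Zfp85 region also had no listed start within 1 kb. Ints3, a subunit of the Integrator complex, had 1904 bp and 1850 bp, and the region shared by Emc1 and Ubr4 1845 bp and 3117 bp. In all of these but the last, the H3K27ac peak was wider than the H3K4me3 call in both knockout lists. The reverse pattern, H3K27ac in both control lists and no knockout list, was led by Zfp958, with 2987 bp and 1091 bp in control cells. Atg14, an autophagy gene, had 1411 bp and 501 bp, Zfp870 501 bp and 807 bp, the SNARE gene Stx5a 756 bp and 501 bp, and Thrap3 501 bp and 501 bp.

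H3K27me3 was rare at the members in every list. It touched 25 (1.04%) and 58 (2.42%) of them in control and 107 (4.46%) and 110 (4.58%) in knockout lists. The groups did not overlap, with means of 1.73 ± 0.972% and 4.52 ± 0.0884% (SD, n = 2 each), a difference of 2.79 points (exact permutation p = 0.333, the smallest possible). The difference was 4.21 points when members were chosen without H3K4me3 knockout replicate 1. The knockout H3K27me3 lists were longer over the whole genome, and windows at the ends of genes without an H3K4me3 call went from 5.16% to 8.67%, a difference of 3.51 points. With the H3K27me3 lists at equal length, the difference in members was 1.90 points, 1.72 points larger than in regions called in all 4 H3K4me3 lists and 1.05 points larger than in the wide knockout-only regions. Regions called in all 4 H3K4me3 lists had H3K27me3 at 0.0874% and 0.262%, and the knockout minus control difference was 2.62 points larger in members (exact permutation p = 0.333). That value was 1.37 points without H3K4me3 control replicate 2, and 3.94 and 3.96 points without H3K4me3 knockout replicates 1 and 2. The difference was 1.94 points larger than in the wide knockout-only regions (exact permutation p = 0.333), and 2.95 points larger without H3K4me3 knockout replicate 2. Both reference classes rest on few regions. H3K27me3 touched 0 and 1 of the 59 wide regions in control and 1 and 1 in knockout lists. Of the 572 regions in all 4 lists it touched 1 and 0 in control and 2 and 1 in knockout lists. With the lists at full length and peaks counted within 1 kb of a region, this 1.94 became 4.66 points. Other classes had larger differences than the members. Regions called in a single knockout list went from 4.26% to 10.8% (6.50 points), and all gene-end regions that are not members from 3.03% to 6.67% (3.64 points). In both knockout and no control list it was called at 24 members (1.00%), against 1.29% of all gene-end regions and 1.43% of those that are not members, so the members lay near the background. The reverse was seen at 0 members, against 0.0399% and 0.0586%. At the start itself H3K27me3 covered 1.24% and 1.35% in the knockout lists, with 1.97% and 2.23% at 1000 bp upstream and 2.59% and 3.11% at 1000 bp downstream.

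The 55 members with H3K27me3 in both knockout lists had little H3K27ac. Of them 1 (1.82%) had H3K27ac in both knockout lists, against 736 of all 2401 members (30.7%). Pde4a, a cAMP phosphodiesterase gene (chromosome 9, region 21165464 to 21166348), had no H3K27me3 peak in control replicate 1, a peak of 1787 bp in control replicate 2, and knockout peaks of 4164 bp and 5062 bp. Tet3, an enzyme that oxidises methylcytosine, was called over 913 bp by control replicate 2 and not by control replicate 1, with knockout peaks of 3876 bp and 7346 bp. At Itpka, a kinase gene, control replicate 1 held 1325 bp and the knockout lists 3005 bp and 2380 bp. In these 3 genes a control list already called the mark. Sema3f, Hes7, Trio and Jph1 had no H3K27me3 peak in either control list. The knockout widths were 4742 bp and 3717 bp at the semaphorin gene Sema3f and 3974 bp and 2815 bp at the Notch target Hes7. They were 2716 bp and 2757 bp at the guanine exchange factor gene Trio, and 2258 bp and 3443 bp at Jph1. The Tet3 and Hes7 regions had no listed start within 1 kb.

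The members touched the windows of 2836 genes, 13.0% of the 21883 protein-coding genes, and 443 members (18.5%) touched more than 1 gene. For regions called in all 4 lists that share was 18.7%. A region named here by 1 gene can therefore also touch another. Pairs of genes transcribed away from each other, with both starts inside the region, were found at 152 members (6.33%) and 59 of the 572 regions called in all 4 lists (10.3%). The region touching the most genes, on chromosome 17 (47687342 to 47689216), touched Usp49, Tomm6, Prickle4, Frs3 and a predicted gene. Members at gene triplets included those of Tmprss9, Timm13 and Lmnb2 and of Eme2, Mrps34 and Nme3. The nearest control H3K4me3 peak lay a median 90.8 kb away, and 77 members (3.21%) had one within 5 kb. At 80 of the member genes another gene-end region carried a control call. Wdr5 is an example, where a control replicate 2 peak of 501 bp lay outside the member. Member genes had a median span of 24.3 kb, against 21.5 kb for genes called in all 4 lists and 13.4 kb for genes without a call. Among chromosomes with members the share of genes touched ran from 7.14% on X (69 of 966) to 18.2% on chromosome 8 (190 of 1042), and no member lay on Y.

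Gene lists of cellular roles were set beside the share of all protein-coding genes with a member, 13.0%. The rule used this contrast, so these counts are a description. The 13.0% is taken over all genes, and 61.4% of them had no H3K4me3 call in any list. Of the 8439 genes with a call in any list 2836 had a member. A list with few uncalled genes can therefore lie above 13.0% without standing apart from other called genes. The m6A machinery had the highest share among the lists of cellular roles, with 9 of 20 genes (45%), and 4 others were called in all 4 H3K4me3 lists. Mettl14, the targeted gene (chromosome 3, 123368295 to 123385990), had no H3K4me3 call in either control list and 1074 and 1295 bases at its higher-coordinate end in the knockout lists. Its H3K27ac peaks were 501 bp in control replicate 1, absent in control replicate 2, and 629 bp and 627 bp wide after knockout. A call at a gene end does not check whether coding sequence was deleted. Wtap, the regulatory subunit that places the writer complex in nuclear speckles, had 1637 and 2012 bases, and H3K27ac peaks in all 4 lists, of 1888 bp and 2705 bp in the controls and 1850 bp and 2137 bp in knockout cells. Virma, a scaffold of the writer complex, had 1177 and 903 bases, and Zc3h13, its nuclear anchor, 1090 and 912. These last 2 had no H3K27ac in 3 of the 4 lists. Mettl3, the catalytic subunit, had no H3K4me3 call in any list.

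**Figure D5:**
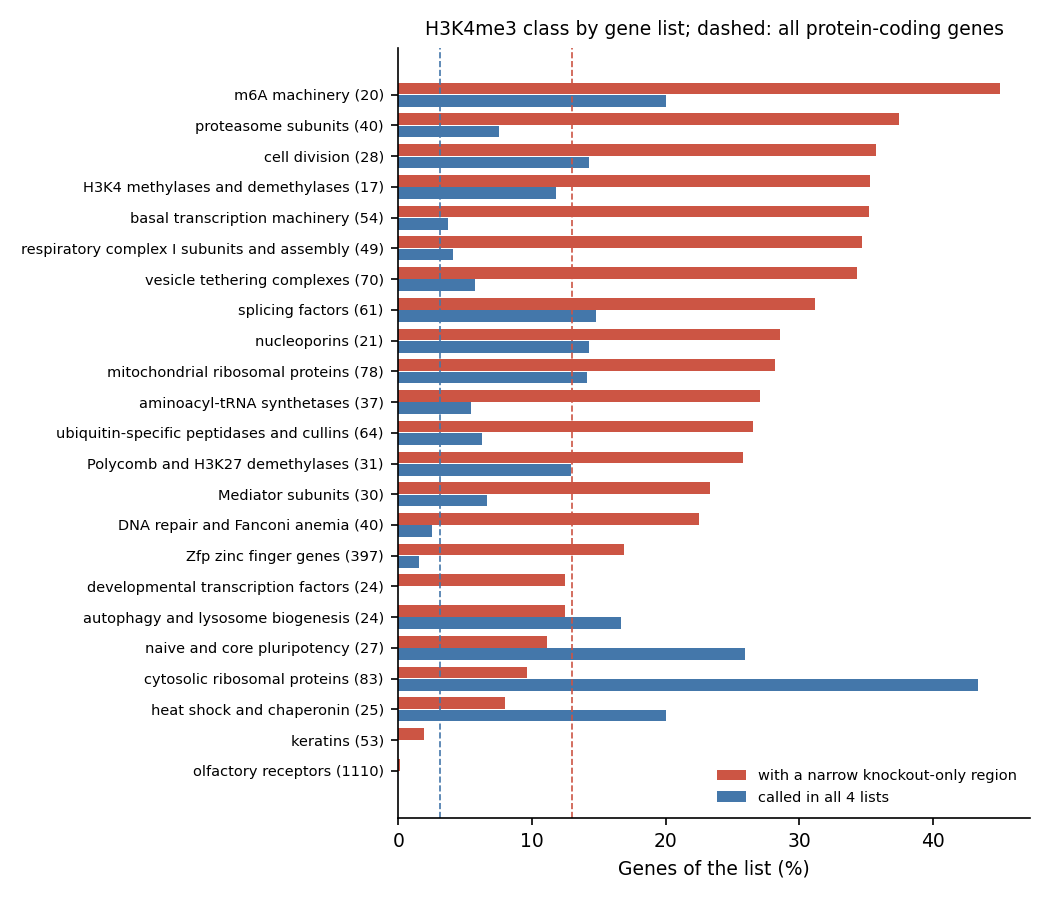
Share of the genes of each list (horizontal axis, %, from 0; number of genes in brackets) with a narrow knockout-only region and with a region called in all 4 H3K4me3 lists. Dashed lines give the same shares over all protein-coding genes, 13.0% and 3.13%; cytosolic ribosomal protein genes have more genes in all 4 lists (43.4%) than with a member (9.64%).

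Lists of chromatin enzymes also lay above the 13.0% of all genes, but fewer of their genes had no H3K4me3 call than the 61.4% of all genes. Shares among called genes alone were not compared, here or for the lists that follow, so no list is shown to stand apart. Of the H3K4 methylases and demethylases 6 of 17 (35.3%) had a member and 1 had no call in any list. Kmt2a, a methyltransferase of Hox regulation, had 1903 and 1712 bases on chromosome 9 (region 44880063 to 44881976), and its relative Kmt2b 1978 and 1061. Kmt2d, an enhancer methyltransferase, had 634 and 633 bases and no H3K27ac in any list. The region lay outside Kmt2d, past its lower-coordinate end, and also touched Prkag1. Which gene the call belongs to was not tested. Wdr5, a core subunit of these complexes, had 908 and 1284 bases and H3K27ac in all 4 lists. Polycomb subunits and H3K27 demethylases had 8 of 31 genes with a member (25.8%) and 5 with no call in any list. The genes with a member included the PRC2 methyltransferase Ezh1 (667 and 501 bases) and the chromodomain genes Cbx2 (1043 and 636) and Cbx6 (914 and 761). Cbx2 also had an H3K27me3 peak of 1783 bp in knockout replicate 2.

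Genes of the naive and core pluripotency network were more often called in all 4 lists (7 of 27) than members (3 of 27, 11.1%). Zfp42, known as Rex1, had 1475 and 1035 bases on chromosome 8 (region 43305727 to 43307201) and no H3K27ac in control cells, against peaks of 3658 bp and 1208 bp in knockout cells. Nr0b1, the nuclear receptor gene Dax1, had 634 and 825 bases, and its H3K27ac was 1030 bp wide in control replicate 2, absent in control replicate 1 and 501 bp in each knockout list. Tet2, a methylcytosine dioxygenase, had 2474 and 1676 bases and H3K27ac in all 4 lists. Of 24 developmental transcription factors 19 had no H3K4me3 call at all (79.2%, against 61.4% of all protein-coding genes) and 3 (12.5%) had a member. Eomes, a T-box factor of early lineage choice, had 1033 and 807 bases, Isl1, a LIM homeobox factor, 903 and 501, and Twist1, a mesoderm factor, 897 and 647. At Twist1 H3K27me3 was called in control replicate 2 (1692 bp) and knockout replicate 2 (1907 bp), so it did not follow the genotype.

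In the cell division list 10 of 28 genes (35.7%) had one. Plk4, the kinase of centriole duplication, had 1321 and 1164 bases, and the checkpoint kinase genes Bub1 and Bub1b had 954 and 779 and 501 and 903. None of the 3 had H3K27ac in knockout replicate 1. In the DNA repair and Fanconi anemia list 9 of 40 (22.5%) had a member. Xrcc1, a scaffold of single-strand break repair, had 1014 and 919 bases with H3K27ac in the knockout lists alone (646 bp and 501 bp). Xrcc3 had 777 and 650, and the checkpoint kinase gene Atr 1783 and 900, both without H3K27ac.

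Subunits of 7 further complexes and machineries had shares of 23.3% to 37.5%, while the cytosolic ribosome, described with the lower lists, had 9.64%. Proteasome subunits had 15 of 40 genes (37.5%), led by Psmd13 with 1458 and 1494 bases and Psma2 with 1229 and 1737. Respiratory complex I had 17 of 49 (34.7%), and the region with the largest smaller width there lay between Ndufb5 and the mitochondrial ribosomal gene Mrpl47, with 1661 and 1924 bases on chromosome 3 (32736103 to 32738026). Mitochondrial ribosomal proteins had 22 of 78 (28.2%). Mrpl46 and Mrps11, a pair of this list, share a region of 1577 and 1681 bases with H3K27ac in all 4 lists. The basal transcription machinery had 19 of 54 (35.2%), with Polr2b, the second largest subunit of RNA polymerase II, at 2191 and 1616 bases and Taf6 at 1710 and 1420. Splicing factors had 19 of 61 (31.1%), among them Prpf4 (1645 and 1933) and Snrpe (1153 and 1053), the latter with H3K27ac in the knockout lists alone. Nucleoporins had 6 of 21 (28.6%), led by Nup88 with 1997 and 1733 bases, and the Mediator 7 of 30 (23.3%), led by Med7 with 1412 and 1177.

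Transport and turnover genes followed. Vesicle tethering complexes had 24 of 70 genes (34.3%), with Cog5 at 1976 and 1573 bases and H3K27ac in the knockout lists alone (857 bp and 640 bp), and Exoc8 at 1568 and 1603 without H3K27ac. Ubiquitin-specific peptidases and cullins had 17 of 64 (26.6%). Usp38 had 1733 and 1979 bases with H3K27ac in the knockout lists alone (1382 bp and 1034 bp), while Cul1, the scaffold of SCF ubiquitin ligases, had 1748 and 1623 with H3K27ac in all 4 lists. Aminoacyl-tRNA synthetases had 10 of 37 (27%), and the phenylalanyl enzyme genes Farsa and Farsb had 1529 and 1076 and 1182 and 1237 bases. Zfp zinc finger genes had 67 of 397 (16.9%), with Zfp592 at 1698 and 1774. In this list 11 of the 67 had H3K27ac in both knockout and no control list, against 293 of 2836 over all member genes.

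Several lists were at or below the share of all genes. Autophagy and lysosome genes had 3 of 24 (12.5%), Atg14, Ulk2 and Map1lc3b. Heat shock and chaperonin genes had 2 of 25 (8%), Hsf1 with 1009 and 1061 bases and Bag6 with 1221 and 1519, while 5 were called in all 4 lists. Cytosolic ribosomal proteins had 8 of 83 (9.64%), and 36 of 83 (43.4%) were called in all 4 lists. Their members were wide for the class, with a median smaller width of 1272 bp against 820 bp over all member genes, and H3K27ac touched 6 and 8 of the 8 in the control lists. Rps15a had 1862 and 1735 bases, where H3K27ac was 2246 bp and 2290 bp wide in control cells, and 3922 bp and 3638 bp wide in knockout cells. Of 1110 olfactory receptor genes, silent outside sensory neurons, 1 had a member and 1106 no call. That gene, Olfr94, shares its region (959 and 501 bases) with Ubd, and H3K27ac was called there in all 4 lists. Of 53 keratins Krt10 alone had a member (630 and 867 bases), at an end with no listed start within 1 kb.

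Markers of stem cells and of other cell types were read from the same lists. Of 6 stem cell markers Zfp42 was a member, Sox2 and Klf4 were called in all 4 lists, Pou5f1 and Nanog in both knockout lists and control replicate 1, and Esrrb in none. Over all protein-coding genes 61.4% had no H3K4me3 call, so absence at a few markers is not unusual. Of 8 fibroblast markers 7 had no H3K4me3 call in any list, Col1a1 and Thy1 among them, and Fn1 had a member of 2326 and 1048 bases with H3K27ac in all 4 lists. Of 7 trophectoderm markers 5 had no call and none was a member, and the 7 primitive endoderm markers had no call in any list.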

How the data were processed

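Peak lists of 3 marks were used from 2 control and 2 knockout libraries each, grouped by title. Tools named per the submitters' processing notes are HOMER, SAMtools, Bowtie2 2.4.1, Trimmomatic 0.38 and CASAVA, with build mm10. For the peak calling settings and any use of the 4 input libraries or spike-in, the answer is not given in the sources used here. Each list belongs to 1 library, and the inputs were not analysed here. The deposited score is the constant 1 for every peak and was not used. Positions and widths (other values, per the file columns as deposited) are the measurements.

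Peaks sharing at least 1 bp were merged. Gene spans and promoters came from RefSeq (GRCm38.p6), and an overlap needed 1 bp. Shares and log2 mean called bases were compared by exact two-sided permutation tests over libraries. The rule and counts were tested on simulated data. Members, gene lists and motifs were chosen with earlier results of these data known. Named genes were Mettl14, Mettl3, up to 4 member genes per list, and the first 5 to 8 of rankings by width limit, replicate ratio, H3K27ac, H3K27me3 and genes touched, without predicted genes. Python 3.11.15, numpy 2.4.6 and pandas 2.3.3 were used. Alternatives were list length, window, width limit, merging, overlap, leaving out each library and a replicate block; the H3K4me3 lists at equal length were added after seeing the data. Some genes that the rule names are not reported here.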

Additional observations from a re-analysis of the deposited data

How the results depend on the processing

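The count of 2401 regions stayed within 1.5 times under other settings (windows of 500 bp and 2500 bp, limits of 1500 and 2200 bases or 1800 in both lists, merging within 500 bp, minimum-width peaks left out). With H3K4me3 lists at equal length, an alternative chosen after seeing the data, it was 410, and leaving out 1 H3K4me3 library gave 2999 to 3638, since fewer calls or absences are then required. The 8 tested differences kept their sign in 105 of 108 alternatives. Part of this tally was fixed beforehand. The replicate block repeats the main difference, so its sign could not change. Where the groups of lists did not overlap, leaving out 1 library of the tested mark could not reverse the sign either. The exceptions were in the H3K27ac share of members minus that of wide knockout-only regions, which ran from -7.85 to 5.34 points with 1 library left out, at a count of 59 wide regions in the full data. The H3K27ac share difference ran from 18.1 to 25.9 points and the H3K27me3 one from 1.90 to 4.21 points over all alternatives. Paired by replicate number (replicate block), the H3K27ac difference was 23.1 points (exact sign-flip p = 0.5, the smallest 2 pairs allow). Replicate deviations of control and knockout correlated at -0.00943 for H3K27ac, 0.0676 for H3K27me3 and 0.0124 for H3K4me3 over 7520 gene-end regions. Many of these regions have no call in a list, so the values cannot decide whether libraries of the same number were prepared together. The labels do not say. No p in this design can pass 0.05. Read depth is unknown, so absence from a list is not absence of the mark.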
